A study of Asparagus officinalis with 12 samples.

Results

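The genes described here encode transporters of amino acids, nitrate, ammonium and peptides in the stem of garden asparagus (Asparagus officinalis), a vegetable eaten as the young, unbranched spear. They were taken by the words of their annotation, namely amino acid permease, amino acid transporter, lysine histidine transporter, NRT1/PTR, nitrate transporter, ammonium transporter, WAT1-related, oligopeptide transporter or GABA transporter. The rule found 176 of the 35166 genes of the expression table, and no expression value entered it. RNA-Seq libraries had been made from tender stems of the cultivar 'Fengdao 2' that stood 10, 25, 40 or 60 cm tall, and the stages are called by these heights (H-10 to H-60). Each stage had 3 libraries, 12 in all. The H-10 tissue lay 3 to 6 cm from the surface, and the tissue of the other stages lay 17 to 20 cm from it. H-10 therefore differed from the other stages in both height and position, and these cannot be told apart. From H-25 to H-60 the segment, at a fixed distance from the surface, lay farther from the tip the taller the stem. Stage and distance from the tip cannot be told apart there either. All stems were of 1 cultivar, and no treatment is named. The study states biological replicates, but not which stems entered which library. The table names its columns only by stage and replicate numbers, and the stage numbers were taken to follow increasing height. Levels are FPKM, fragment counts scaled by transcript length and a total for each library. Between 13468440 and 16980659 fragments per library could be recovered from the values. The total implied by the values was not this number. It was larger in every H-10 library (19168000 against 16980659 in replicate 1) and larger or smaller in the other stages (14023900 against 15031412 in H-25 replicate 2). By the implied totals, 1 fragment on a transcript of 1 kb was worth 0.0522 to 0.0795 FPKM.

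Plants move nitrogen between organs as nitrate, amino acids and, to a lesser degree, small peptides. Amino acid permeases and lysine histidine transporters couple the import of amino acids to protons at the plasma membrane. In Arabidopsis, many WAT1-related proteins belong to a family that lets amino acids leave cells, and its founding member, WAT1, exports auxin from the vacuole and is needed for secondary walls in fibres. Members of the NRT1/PTR family (NPF) carry nitrate, small peptides and also hormones such as abscisic acid and gibberellin, whereas NRT2 proteins take up nitrate at high affinity and need an activating partner. A spear grows from stored reserves, and its lower part stops elongating and lignifies while the tip is still growing.

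Of the 3 H-25 libraries, replicate 2 stood apart. Its summed FPKM over the 176 transporter genes was 1378, against 939 and 934 in replicates 1 and 3, and it lay above both in 63 of the 105 genes tested (60.0%), compared with 41.4% of all tested genes. The amino acid permeases alone summed to 215.6 FPKM in this library and to 80.4 and 83.4 FPKM in the others. Lists of cell type markers also differed in it. The 20 phloem markers summed to 168 FPKM in replicate 2 and to 76.2 and 55.1 FPKM in replicates 1 and 3, and the 24 markers of xylem and secondary wall to 619, against 154 and 169.6 FPKM. The 22 markers of dividing cells went the other way, with 1069.9 FPKM in replicate 2, against 2487 and 2180.4 FPKM. The lists for chloroplast-bearing tissue (20010.0, against 14692 and 13717 FPKM) and epidermis (13112, against 9279.8 and 7849 FPKM) were highest in replicate 2 as well. The label of this library was kept, and counts are given with and without it. With bulk stem tissue, fewer cells of a type and less RNA per cell cannot be told apart.

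**Figure D1:**
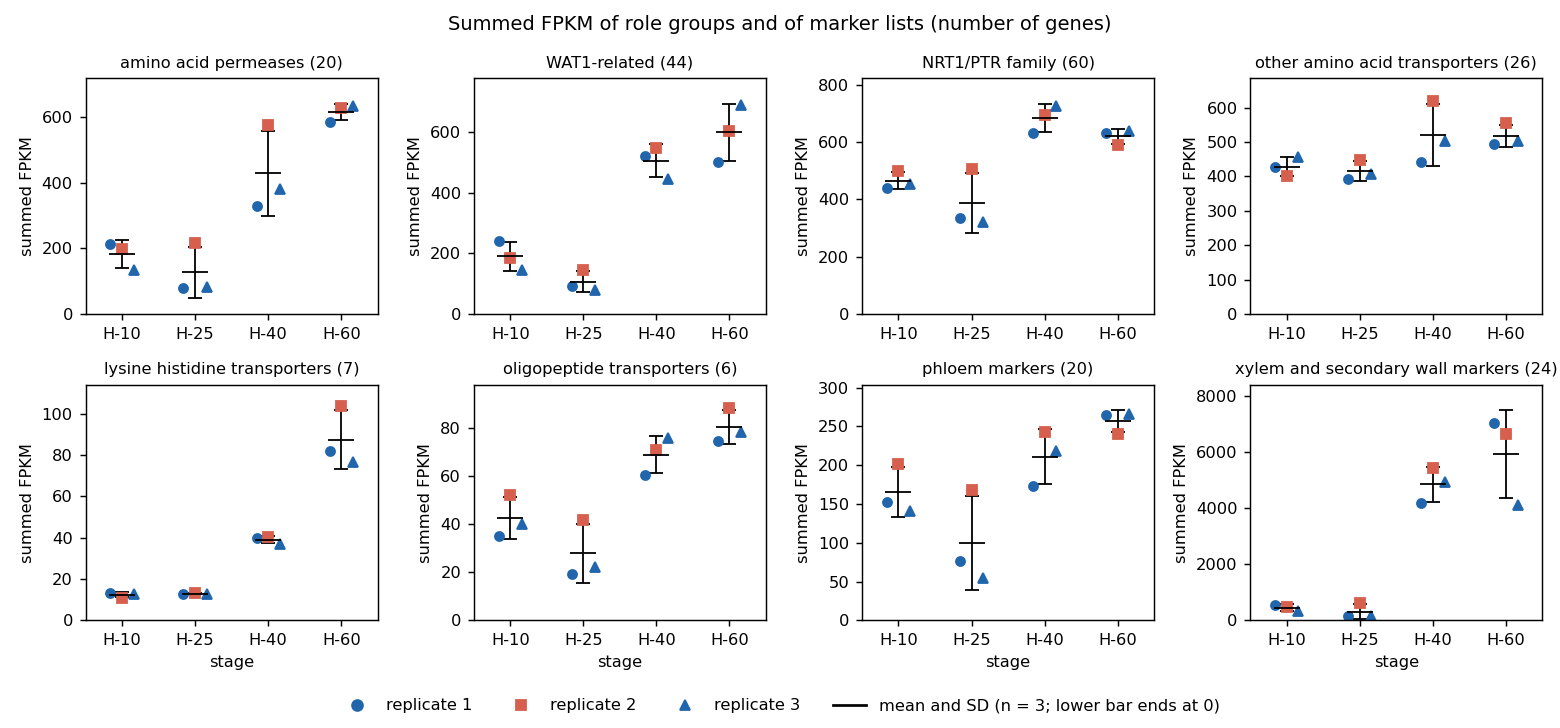
Summed FPKM of 6 role groups of transporter genes and of 2 marker lists in each library. The horizontal axis is the stage, the vertical axis summed FPKM, points are libraries and bars the mean and SD (n = 3). The amino acid permeases summed to 80.4 to 215.6 FPKM in H-25 and to 586 to 632 FPKM in H-60. Replicate 2 of H-25 is the highest of its stage in all 6 role group panels, by little for the lysine histidine transporters, and in both marker panels.

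As a whole, the transporter genes were lowest in H-25 and highest in H-60. Their summed FPKM was 1330 ± 66.3 in H-10, 1084 ± 255 in H-25, 2255 ± 270.2 in H-40 and 2542 ± 128 in H-60 (SD, n = 3 each). These sums were not tested, and the H-60 libraries overlapped those of H-40, as H-25 replicate 2 did those of H-10. The amino acid permeases (20 genes) held 182 ± 41.9, 126 ± 77.2, 429 ± 129 and 614.7 ± 25.4 FPKM of this in the order of the stages, and the WAT1-related genes (44) 190.3 ± 47.4, 106.0 ± 35.1, 505 ± 53.9 and 599 ± 94.2 FPKM. The NPF genes (60) summed to 464 ± 29.6, 387 ± 103, 684 ± 49.4 and 619.7 ± 26.8 FPKM, with H-40 and H-60 libraries overlapping. By gene, 20 of the 39 tested NPF genes had their highest stage mean in H-60 (51.3%) and 11 in H-40 (28.2%). The 10 genes with the highest means held 44.3% of the summed FPKM. At the other end, 23 of the 176 genes had no fragment in any library, and 48 more were too low to test, with no value above 2.79 FPKM. The 105 tested genes reached 1 FPKM in at least 3 libraries, 77 of them in 3 or more libraries of both the early stages (H-10 and H-25) and the late stages (H-40 and H-60), 26 in late libraries only and 2 in early libraries only. Of all 20352 tested genes, 16955 did so in both, 1649 in late libraries only and 1345 in early libraries only. By stage mean, 58 of the 105 were highest in H-60 (55.2%, against 30.1% of all 20352 tested genes) and 60 were lowest in H-25 (57.1%, against 28.8%). The genes belong to multigene families, so a fragment shared by near-identical copies could be assigned to either.

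**Figure D2:**
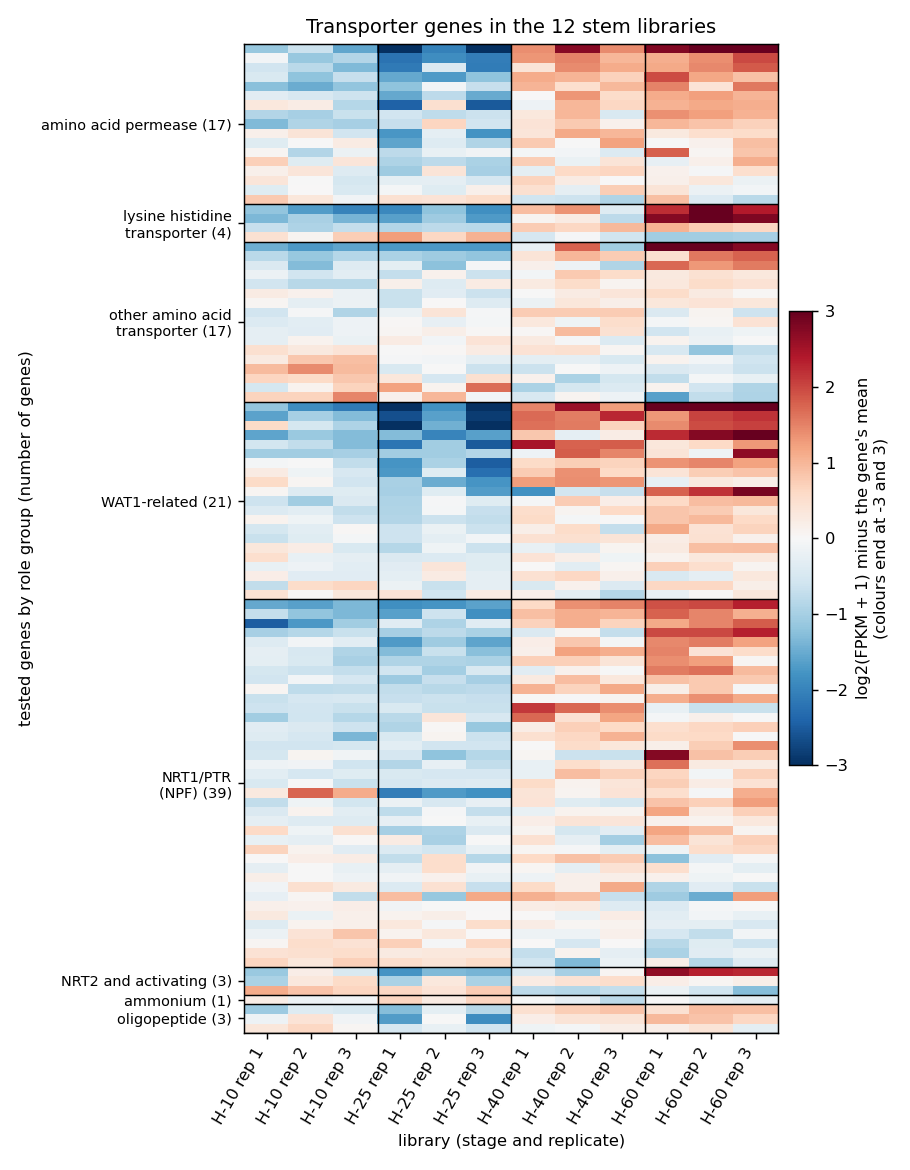
Expression of the 105 tested transporter genes in the 12 libraries. Each row is a gene, ordered within its role group by the difference between late and early stages, each column is a library, and colour gives log2(FPKM + 1) minus the gene's mean over the 12 libraries. Many rows are blue in H-25 and red in H-40 and H-60. Of the 105 genes, 60 had their lowest stage mean in H-25.

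Levels were compared between stages on the scale of log2(FPKM + 1), and a gene was called higher or lower in the later stage when its adjusted p was at most 0.05 and its log2 fold change at least 1 in size. Of the 3 neighbouring steps, most calls fell in H-40 vs. H-25, both taken 17 to 20 cm from the surface, in stems of different height. In it 41 transporter genes were called higher (39.0% of those tested, where 11.9% of all tested genes were) and 5 lower (4.76%, where 12.2% of all tested genes were). The median log2 fold change of the 105 was 0.78, against 0.01 over all tested genes. Of the 41 higher genes, 29 passed the filter on low values in both early and late libraries and 12 through late libraries only. Those 12 entered the test by being high in late libraries, which raises the share called higher. The share among all genes passing in both was not computed. With a mean of at least 5 FPKM required over the 12 libraries, 32 of 62 transporter genes were higher (51.6%, against 13.4% of all genes so filtered). Without H-25 replicate 2, 47 were higher (44.8%, against 14.8% of all genes) and 5 lower (4.76%, against 15.5%). Without H-40 replicate 2, 3 were lower (2.86%, against 10.5%).

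The other steps held fewer calls. In H-60 vs. H-40, 13 transporter genes were higher (12.4%, against 3.02% of all tested genes) and 6 lower (5.71%, against 2.28%). Leaving out H-40 replicate 3 reduced these to 8 higher (7.62%, against 1.85%) and 2 lower (1.9%, against 1.5%). Lower genes numbered 2 without H-60 replicate 1 (1.9%, against 1.74%) and 3 without H-60 replicate 2 (2.86%, against 1.32%). The share of lower genes was thus near that of all genes without H-40 replicate 3 or H-60 replicate 1. In H-25 vs. H-10, none was called higher, where 1.54% of all tested genes were, and 8 were lower (7.62%, against 2.91%). By limma at an unadjusted p under 0.05, 5 were higher and 24 lower in H-25. Shares at that threshold were not computed over all tested genes, so no lean of the transporters is read from these counts. At the thresholds of the main fit, voom on the recovered fragments called 1 higher (0.952%, against 1.69%) and 9 lower (8.57%, against 3.02%). Without H-25 replicate 2 this step held 2 higher (1.90%, against 4.40% of all tested genes) and 18 lower genes (17.1%, against 5.69%), so that calls over all genes rose in number as well. It held 2 lower genes without H-25 replicate 3 (1.90%, against 1.17% of all tested genes). It held 3 (2.86%) without H-25 replicate 1 (against 1.52%) or H-10 replicate 2 (against 1.24%), and 5 without H-10 replicate 1 (4.76%, against 2.51%). Without H-10 replicate 3 there was 1 higher gene (0.952%, against 1.31%). Across the whole interval at 17 to 20 cm from the surface, H-60 vs. H-25, 56 were higher (53.3%, against 16.3% of all tested genes) and 5 lower (4.76%, against 16.2%). Of the 56, 33 passed the filter in both early and late libraries and 23 through late libraries only. Those 23 entered the test by being high late, and the share among all genes passing in both was not computed. Without H-25 replicate 2 there were 59 higher (56.2%, against 18.7%) and 5 lower (4.76%, against 19%). Lower genes numbered 3 (2.86%) without H-25 replicate 3 (against 14.7%) or H-60 replicate 3 (against 15.9%). H-40 vs. H-25, H-25 vs. H-10 and H-60 vs. H-25 share the H-25 libraries, so their counts are not independent.

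**Figure D3:**
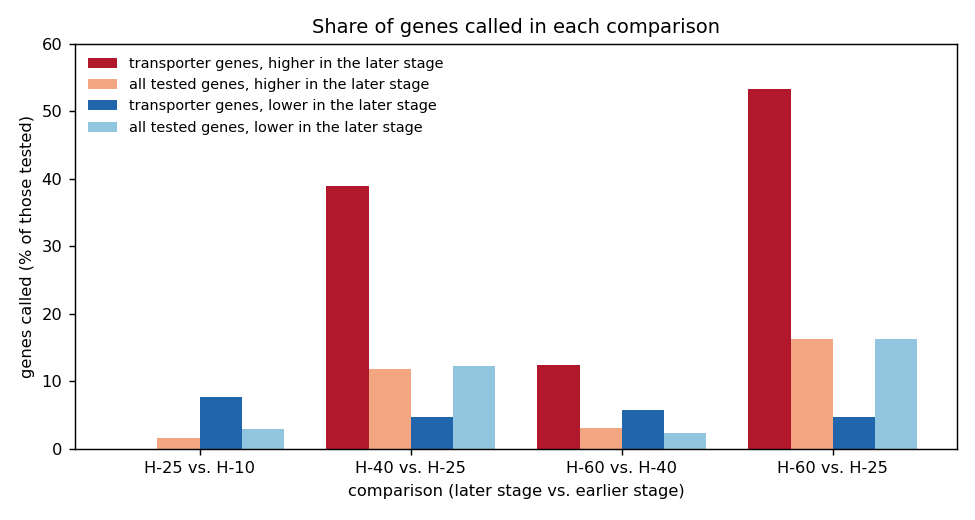
Share of genes called in each comparison. The vertical axis is the percentage of tested genes, with the 105 transporter genes in the darker bars and all 20352 tested genes in the lighter ones, red for higher and blue for lower in the later stage. In H-40 vs. H-25, 39.0% of the transporter genes and 11.9% of all tested genes were called higher.

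Over the 3 neighbouring steps, 48 of the 105 genes were called in none, 43 in 1, 12 in 2 and 2 in all 3. Among genes with a call, the commonest course, in 27 genes, was a call higher in H-40 vs. H-25 with no call before or after. Another 5 were lower in H-25 and then higher in H-40, 5 were higher in both H-40 and H-60, and 7 were higher only in H-60 vs. H-40, though a missing call at a step does not show that the gene stayed level there. These courses were not counted over all tested genes, so they are not shown to be particular to the transporters. Sums of cell type markers also differed between the stages. Xylem and secondary wall markers (19 of 24 tested, none at 0 in every library) summed to 4205 to 5438 FPKM in H-40 and 4135 to 7036 in H-60, against 154 to 619 in H-25. Phloem markers (14 of 20 tested, 2 at 0 throughout) summed to 173 to 242 FPKM in H-40 and 240.7 to 265 in H-60, against 55.1 to 168 in H-25. Markers of dividing cells (16 of 22 tested, 3 at 0 throughout) summed to 304 to 451 FPKM in H-40 and 184 to 256 in H-60, against 1069.9 to 2487 in H-25. In H-10 these lists summed to 325 to 558 FPKM for xylem and secondary wall, 141 to 202 for phloem and 823 to 1648 for dividing cells. Epidermis markers (32 of 58 tested, 8 at 0 throughout) summed to 5219.5 to 5566 FPKM in H-40 and 6212 to 12911 in H-60, against 7849 to 13112 in H-25. Markers of chloroplast-bearing tissue (39 of 40 tested, 1 at 0 throughout) summed to 13717 to 20010 FPKM in H-25. Their sums were 19162 to 26522 FPKM in H-40 and 11193 to 16528 in H-60. The part of these shifts in the transporter results was not tested.

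**Figure D4:**
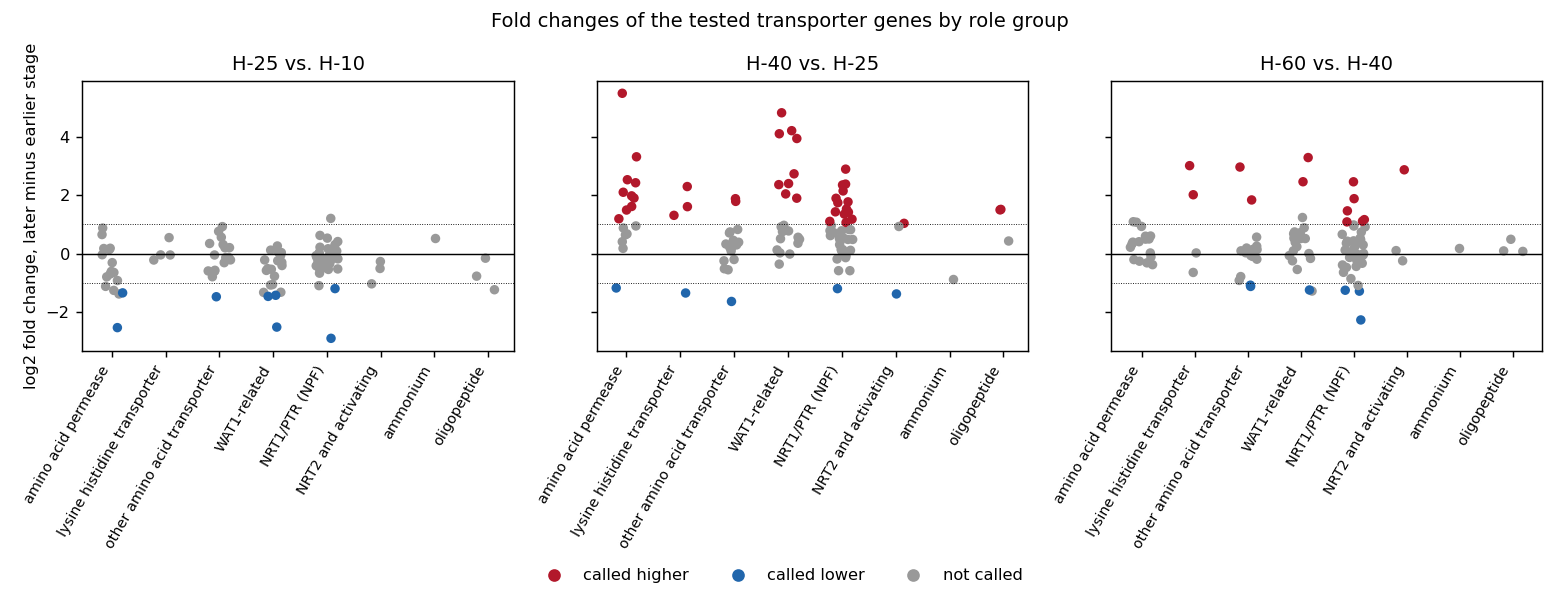
Log2 fold changes of the 105 tested transporter genes at the 3 neighbouring steps, by role group. Each point is a gene, the vertical axis is the log2 fold change of the later over the earlier stage, dotted lines mark 1 and -1, and colour marks the call. The amino acid permeases and WAT1-related genes reach 5.49 and 4.82 in H-40 vs. H-25.

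Most tested amino acid permeases were higher in H-40 than in H-25. Of 17 tested, 10 were higher (58.8%, against 11.9% of all tested genes) and 1 lower (5.88%, against 12.2%) in H-40 vs. H-25, with a median log2 fold change of 1.49. In H-60 vs. H-25, 13 were higher (76.5%, against 16.3%) and none lower, where 16.2% of all tested genes were, and in H-60 vs. H-40 no permease was called. The gene with the largest rise of all 105, LOC109836110 (amino acid permease 4-like; chromosome 4, 120440854 to 120444525, forward strand), had 13.1, 19.1 and 9.56 FPKM in H-10, 0.368, 6.63 and 0.471 FPKM in H-25, 80.7, 204 and 81.9 FPKM in H-40 and 212, 252 and 240.1 FPKM in H-60. Each H-40 and H-60 library was several times above every H-25 and H-10 library. The difference was 5.49 ± 0.57 on the log2 scale in H-40 vs. H-25 (SE, adjusted p = 2.77e-05) and 6.56 ± 0.57 in H-60 vs. H-25 (adjusted p = 3.43e-06). It was also called lower in H-25 vs. H-10 (log2 fold change -2.54 with SE 0.57, adjusted p = 0.0237), and this call was lost on leaving out library 1 or 2 of H-10 or library 1 or 3 of H-25 (log2 fold change -2.55 to -2.10, adjusted p 0.0513 to 0.106), as well as in a fit to these stages alone (adjusted p = 0.136).

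LOC109824358 (amino acid permease 3), whose Arabidopsis namesake is found in phloem, was the second most abundant permease. It had 73.4, 68.1 and 31.9 FPKM in H-10, 10.1, 82.1 and 9.31 FPKM in H-25, 52.2, 118 and 90.5 FPKM in H-40 and 121, 130.3 and 126 FPKM in H-60. Replicate 2 of H-25 was within the range of H-40 while the other H-25 libraries were below every other library, so H-40 and H-25 overlapped. The rise in H-40 vs. H-25 passed the test (log2 fold change 1.98 with SE 0.65, adjusted p = 0.0293), a call lost on leaving out library 1 or 3 of H-25 or library 2 or 3 of H-40 (log2 fold change 1.46 to 1.91, adjusted p 0.0744 to 0.126), as well as with no filter on low values (adjusted p = 0.0528) and in a fit to these stages alone (adjusted p = 0.0837). Without H-25 replicate 2 it was larger (log2 fold change 2.96, adjusted p = 6.06e-05). In H-60 vs. H-25 the groups did not overlap (log2 fold change 2.58 with SE 0.65, adjusted p = 0.00586).

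LOC109843689 (amino acid permease 8-like), named for a permease that loads amino acids into the phloem of Arabidopsis leaves, averaged 27.1 ± 9.44 FPKM in H-40 against 4.49 ± 4.01 FPKM in H-25 (log2 fold change 2.53 with SE 0.42, adjusted p = 0.00069). Of the genes annotated as probable amino acid permease 7, LOC109848588 (chromosome 1, 8872656 to 8882857, reverse strand) had 3.73, 1.25 and 1.69 FPKM in H-10, 0.0786, 0.358 and 0.189 FPKM in H-25, 11.4, 12.9 and 8.93 FPKM in H-40 and 9.56, 12 and 18.5 FPKM in H-60. It was thus low in H-25, intermediate in H-10 and high in both late stages, with no overlap between H-25 and any other stage. It was higher in H-40 vs. H-25 (log2 fold change 3.31 with SE 0.30, adjusted p = 1.37e-05) and lower in H-25 vs. H-10 (log2 fold change -1.35 with SE 0.30, adjusted p = 0.0252), the second call being lost on leaving out library 1 of H-10 or library 1 or 3 of H-25 (log2 fold change -1.34 to -1.03, adjusted p 0.0645 to 0.0944), as well as in a fit to these stages alone (adjusted p = 0.0942). LOC109827845, with the same annotation, averaged 5.30 ± 0.943 FPKM in H-40 against 0.177 ± 0.210 FPKM in H-25 (log2 fold change 2.42 with SE 0.30, adjusted p = 9.82e-05). The only permease that fell in H-40 vs. H-25, LOC109840159, also carries this annotation. It averaged 3.81 ± 0.549 FPKM in H-40 against 9.84 ± 0.547 FPKM in H-25 (log2 fold change -1.18 with SE 0.37, adjusted p = 0.0244), a call lost on leaving out library 1 or 3 of H-25 or library 2 or 3 of H-40 (log2 fold change -1.22 to -1.08, adjusted p 0.0530 to 0.0743), and its H-60 values of 13.7, 4.83 and 3.42 FPKM spanned those of H-40 and H-25.

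Among lysine histidine transporters, 4 of 7 were tested, and 3 were higher (75%) and 1 lower (25%) in both H-40 vs. H-25 and H-60 vs. H-25. Of all tested genes, 11.9% were higher and 12.2% lower in H-40 vs. H-25, and 16.3% and 16.2% in H-60 vs. H-25. LOC109836662 (lysine histidine transporter 1-like), named for an Arabidopsis importer of neutral and acidic amino acids in roots and leaves, had 0.757, 0.255 and 0 FPKM in H-10, 0.0378, 0.732 and 0.109 FPKM in H-25, 6.61, 9.09 and 2.07 FPKM in H-40 and 17.4, 39.5 and 19.9 FPKM in H-60. It was near 0 in all 6 early libraries and highest in H-60. It rose in H-40 vs. H-25 (log2 fold change 2.29 with SE 0.44, adjusted p = 0.00164) and again in H-60 vs. H-40 (log2 fold change 2.01 with SE 0.44, adjusted p = 0.0173), where the call was lost on leaving out library 3 of H-40 or library 2 of H-60 (log2 fold change 1.51 to 1.66, adjusted p 0.0591 to 0.0835), as well as with a pseudocount of 0.1 (adjusted p = 0.154).

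LOC109845526 (lysine histidine transporter-like 6) showed its main change at the last step. It had 0.794, 1.33 and 0.725 FPKM in H-10, 0.476, 1.18 and 0.416 FPKM in H-25, 3.83, 4.43 and 1.65 FPKM in H-40 and 29.8, 35.9 and 30.99 FPKM in H-60. The H-60 libraries were far above all others, and the rise in H-60 vs. H-40 (log2 fold change 3.01 with SE 0.29, adjusted p = 0.000116) exceeded that in H-40 vs. H-25 (log2 fold change 1.31 with SE 0.29, adjusted p = 0.00358) in size, a difference not tested. The lysine histidine transporter-like 8 genes went opposite ways. LOC109837801 averaged 29.2 ± 3.65 FPKM in H-40 against 8.87 ± 0.328 FPKM in H-25 (log2 fold change 1.61 with SE 0.16, adjusted p = 2.26e-05), although it overlaps LOC109837802 on the other strand and reads of the pair may not be separable, since the sources do not say whether counting used strand. LOC109821146 fell to 0.446, 1.02 and 0.367 FPKM in H-40, against 3.90, 2.18 and 3.23 FPKM in H-25 (log2 fold change -1.35 with SE 0.25, adjusted p = 0.00137), and had 0, 0 and 0.0394 FPKM in H-60.

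The remaining amino acid transporters include vacuolar and cationic types. In H-40 vs. H-25 and H-60 vs. H-25 they were called at shares near or below those of all genes. Of 17 tested, 2 were higher (11.8%, against 11.9% of all tested genes) and 1 lower (5.88%, against 12.2%) in H-40 vs. H-25. In H-60 vs. H-25, 3 were higher (17.6%, against 16.3%) and 2 lower (11.8%, against 16.2%), with a median log2 fold change of -0.06. The shares were above those of all genes in H-60 vs. H-40, with 2 higher (11.8%, against 3.02%) and 2 lower (11.8%, against 2.28%). In H-25 vs. H-10, none was higher (against 1.54%) and 1 was lower (5.88%, against 2.91%). Their summed level was 429 ± 28.0 FPKM in H-10, 415 ± 27.8 in H-25, 521 ± 89.9 in H-40 and 518 ± 32.3 in H-60. The most abundant transporter gene of all, LOC109832945 (cationic amino acid transporter 3, mitochondrial-like), had 91.2, 76.01 and 76.5 FPKM in H-10, 153, 104 and 164 FPKM in H-25, 167, 202 and 144 FPKM in H-40 and 172, 202 and 187 FPKM in H-60 and was called in no comparison. LOC109849341 (sodium-coupled neutral amino acid transporter 2-like) had 83.7, 62.7 and 75.5 FPKM in H-10, 57.6, 104 and 59.8 FPKM in H-25, 89.7, 163 and 139 FPKM in H-40 and 116, 129 and 117 FPKM in H-60 and was likewise not called when all libraries were used. Without H-25 replicate 2 it was called higher in H-40 vs. H-25 (log2 fold change 1.10, adjusted p = 0.00218).

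Genes annotated as vacuolar amino acid transporter 1-like, after a yeast carrier that moves neutral amino acids into the vacuole, differed sharply from one another. LOC109832006 (chromosome 3, 806886 to 808429, reverse strand) had 0.195, 0 and 0.0978 FPKM in H-10, 0 FPKM in all 3 H-25 libraries, 1.78, 10.2 and 0.594 FPKM in H-40 and 28.3, 35.7 and 20.9 FPKM in H-60. Only H-40 replicate 2 was high among the H-40 libraries, and all H-60 libraries were above it. It was called higher in H-40 vs. H-25 (adjusted p = 0.0140), though not in a fit to these stages alone (adjusted p = 0.0556), and in H-60 vs. H-40 (log2 fold change 2.96 with SE 0.53, adjusted p = 0.00598). No fold is given against H-25, where it had no fragments. LOC109837489 ran in the reverse direction, with 77.8, 77.6 and 134 FPKM in H-10, 52.5, 97.3 and 45.2 FPKM in H-25, 34.2, 51.5 and 43.7 FPKM in H-40 and 14.8, 28.5 and 25.1 FPKM in H-60. It was lower in H-60 vs. H-25 (log2 fold change -1.44 with SE 0.33, adjusted p = 0.00313), with no overlap. LOC109840495 was lower in H-60 vs. H-40, at 5.95 ± 1.61 FPKM in H-60 against 13.98 ± 2.22 FPKM in H-40 (log2 fold change -1.13 with SE 0.20, adjusted p = 0.00587), a call lost on leaving out library 2 of H-60 (log2 fold change -0.94, adjusted p = 0.0287).

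LOC109841188 (probable sodium-coupled neutral amino acid transporter 6) was the 1 gene of this group called in H-25 vs. H-10 when all libraries were used. It fell to 13.98, 19.6 and 12.3 FPKM in H-25, against 39.2, 54.4 and 38.9 FPKM in H-10 (log2 fold change -1.48 with SE 0.22, adjusted p = 0.00338), and averaged 16.3 ± 3.72 FPKM in H-40 and 13.97 ± 1.61 FPKM in H-60. LOC109845966 (amino acid transporter ANTL1-like) was lower in H-40 vs. H-25, with 1.24, 1.99 and 2.26 FPKM in H-40 against 9.10, 3.69 and 12.9 FPKM in H-25 (log2 fold change -1.64 with SE 0.42, adjusted p = 0.00879). It was also lower in H-60 vs. H-25 (log2 fold change -1.45 with SE 0.42, adjusted p = 0.0127), a call lost on leaving out library 3 of H-25 or library 3 of H-60 (log2 fold change -1.23 to -1.11, adjusted p 0.0536 to 0.0620). Without H-25 replicate 2 it was called higher in H-25 vs. H-10 (log2 fold change 1.37, adjusted p = 0.0308). LOC109851415 (probable vacuolar amino acid transporter YPQ1), named for a yeast vacuolar carrier of basic amino acids, averaged 7.13 ± 1.21 FPKM in H-60 against 1.36 ± 0.819 FPKM in H-40 (log2 fold change 1.84 with SE 0.38, adjusted p = 0.0124), and this call was lost on leaving out library 3 of H-40 (log2 fold change 1.53, adjusted p = 0.0560), as well as with a pseudocount of 0.1 (adjusted p = 0.0934).

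Of the WAT1-related genes, 21 of 44 were tested. In H-40 vs. H-25, 9 were higher (42.9%, against 11.9% of all tested genes) and none lower (against 12.2%). In H-60 vs. H-25, 15 were higher (71.4%, against 16.3%) and none lower (against 16.2%), and in H-25 vs. H-10, 3 were lower (14.3%, against 2.91%). By the size of change the foremost was LOC109823030 (At1g21890-like; chromosome 8, 98687921 to 98691365, forward strand), with 4.70, 2.56 and 1.97 FPKM in H-10, 0.0458, 2.66 and 0 FPKM in H-25, 34.6, 77.4 and 29.98 FPKM in H-40 and 102, 99.7 and 108 FPKM in H-60. It was almost absent from 2 of 3 H-25 libraries, and all H-60 libraries were above all H-40 libraries. The rise in H-40 vs. H-25 was 4.82 ± 0.48 on the log2 scale (SE, adjusted p = 2.09e-05). A second gene of this annotation, LOC109834056, was instead highest in H-40, with 13.3, 11.6 and 7.53 FPKM in H-10, 3.60, 9.11 and 2.65 FPKM in H-25, 115, 70.5 and 72.6 FPKM in H-40 and 25.3, 30.4 and 50.5 FPKM in H-60. It was higher in H-40 vs. H-25 (log2 fold change 3.94 with SE 0.38, adjusted p = 1.71e-05), and its difference in H-60 vs. H-40 (log2 fold change -1.28 with SE 0.38, adjusted p = 0.0605) was not called. In 4 of 20 alternative settings this gene was called lower in H-60 vs. H-40.

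The At5g07050-like genes also differed among themselves. LOC109824906 had 39.5, 17.8 and 13.2 FPKM in H-10, 2.04, 8.93 and 0.912 FPKM in H-25, 83.8, 78.8 and 42.2 FPKM in H-40 and 71.7, 104 and 111 FPKM in H-60. It rose in H-40 vs. H-25 (log2 fold change 4.10 with SE 0.54, adjusted p = 0.000139), and its lower level in H-25 vs. H-10 (log2 fold change -2.52 with SE 0.54, adjusted p = 0.0198) was not called on leaving out library 1 or 2 of H-10 or library 1 or 3 of H-25 (log2 fold change -2.63 to -2.01, adjusted p 0.0576 to 0.0876), as well as in a fit to these stages alone (adjusted p = 0.132). LOC109829648 averaged 25.4 ± 7.42 FPKM in H-40 against 0.501 ± 0.732 FPKM in H-25 (log2 fold change 4.21 with SE 0.35, adjusted p = 6.51e-06) and had 25.6 ± 7.71 FPKM in H-60.

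LOC109850882, also At5g07050-like, was called at all 3 steps, lower, higher and lower, with 51.96, 36.4 and 23.04 FPKM in H-10, 17.1, 11.8 and 9.49 FPKM in H-25, 83.8, 92.7 and 88.8 FPKM in H-40 and 29.3, 42.8 and 39.3 FPKM in H-60. Its H-40 libraries were above every other library. In H-60 vs. H-40 it fell by 1.25 ± 0.28 on the log2 scale (SE, adjusted p = 0.0185), a call lost on leaving out library 2 or 3 of H-40 or library 1 of H-60 (log2 fold change -1.24 to -1.09, adjusted p 0.0502 to 0.0708), and the call in H-25 vs. H-10 (adjusted p = 0.0126) was lost on leaving out library 2 of H-10 or library 3 of H-25 (log2 fold change -1.41 to -1.25, adjusted p 0.0535 to 0.0642), as well as in a fit to these stages alone (adjusted p = 0.104). LOC109843657, of the same annotation, differed from these, since it was not called in H-40 vs. H-25. It had 13.5, 9.73 and 9.86 FPKM in H-10, 6.04, 9.86 and 3.42 FPKM in H-25, 2.95, 8.52 and 7.67 FPKM in H-40 and 46.8, 61.7 and 100.1 FPKM in H-60, and all H-60 libraries were several times above the rest (log2 fold change 3.29 with SE 0.40, adjusted p = 0.00054 in H-60 vs. H-40).

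LOC109837521 (At4g08300-like) averaged 34.95 ± 1.89 FPKM in H-40 against 6.47 ± 3.87 FPKM in H-25 (log2 fold change 2.40 with SE 0.31, adjusted p = 0.000132) and 56.6 ± 4.81 FPKM in H-60. Its lower level in H-25 vs. H-10 (adjusted p = 0.0196) was lost on leaving out library 1 or 2 of H-10 or library 1 or 3 of H-25 (log2 fold change -1.45 to -1.09, adjusted p 0.0549 to 0.0821), as well as in a fit to these stages alone (adjusted p = 0.147). LOC109838160 (At5g64700-like) rose at both late steps, with 0.747, 1.44 and 1.13 FPKM in H-10, 1.13, 0.340 and 0.688 FPKM in H-25, 8.29, 3.36 and 5.16 FPKM in H-40 and 23.9, 34.6 and 45.8 FPKM in H-60. The stages from H-25 to H-60 did not overlap (log2 fold change 1.90 with SE 0.32, adjusted p = 0.000658 in H-40 vs. H-25 and log2 fold change 2.46 with SE 0.32, adjusted p = 0.000851 in H-60 vs. H-40).

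**Figure D5:**
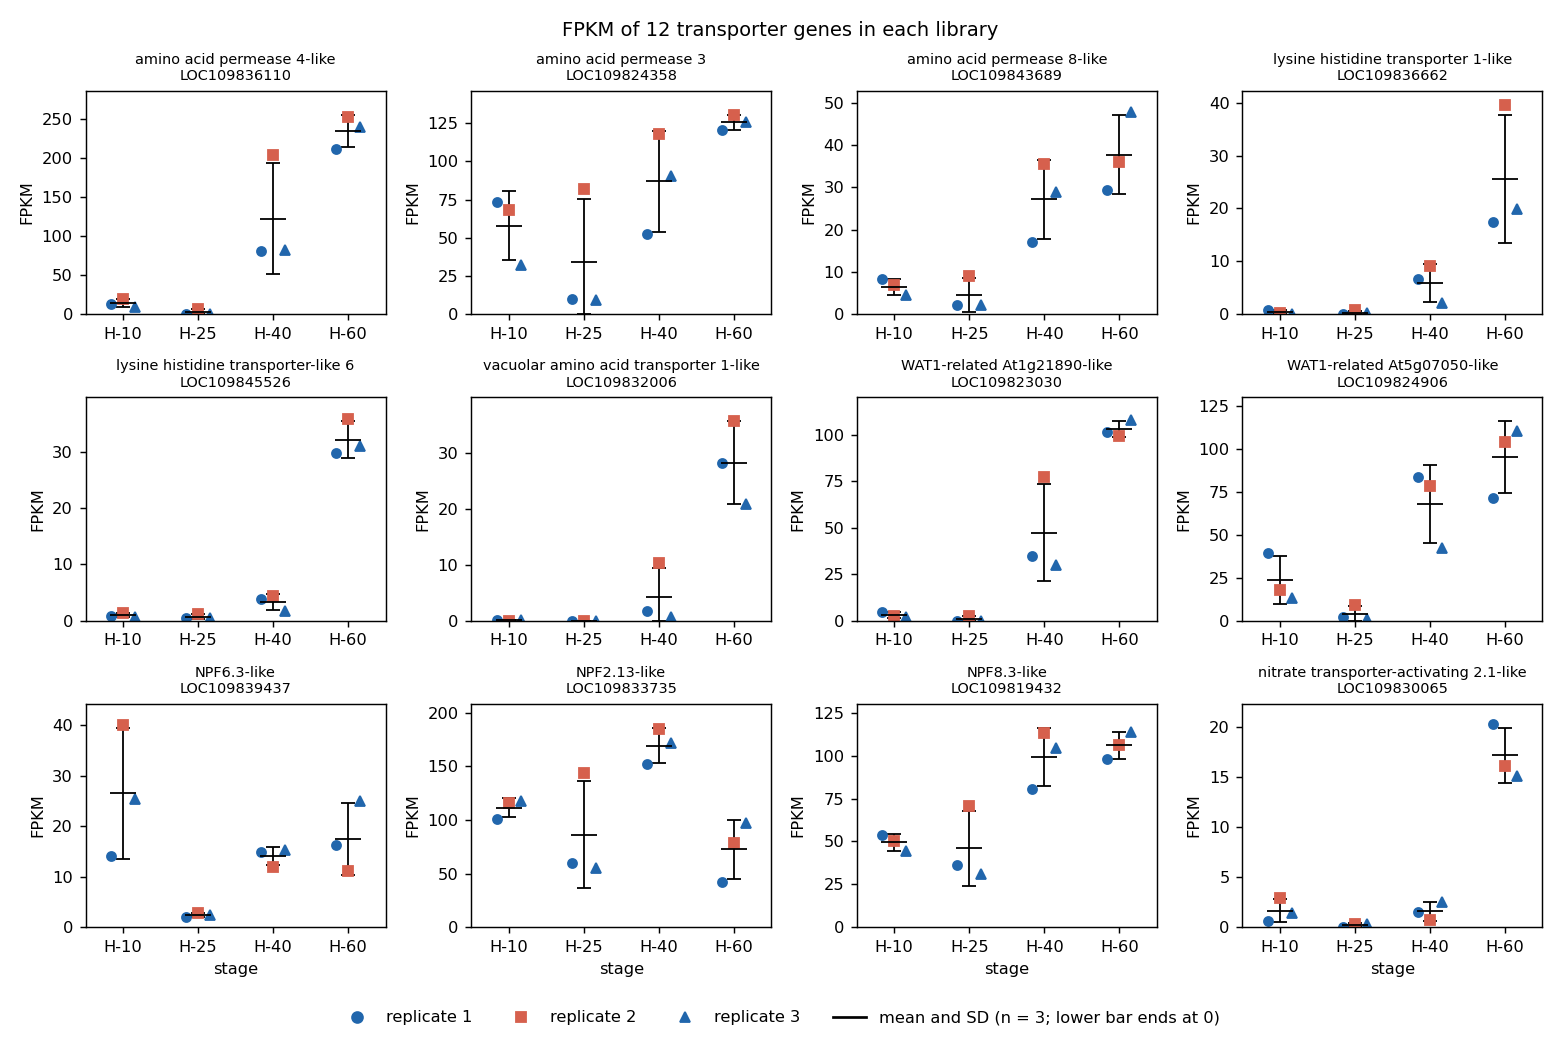
FPKM of 12 transporter genes in each library. The horizontal axis is the stage, the vertical axis FPKM with its own range in each panel, points are libraries and bars the mean and SD (n = 3). Permease 4-like reaches 212 to 252 FPKM in H-60, NPF6.3-like is at 1.94 to 2.81 FPKM in H-25, and NPF2.13-like is highest in H-40, at 152 to 185 FPKM.

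The NPF family, with 39 of 60 genes tested, had 14 higher genes (35.9%, against 11.9% of all tested genes) and 1 lower (2.56%, against 12.2%) in H-40 vs. H-25. In H-60 vs. H-40, 6 were higher (15.4%, against 3.02%) and 3 lower (7.69%, against 2.28%). Its most abundant gene was LOC109833735 (NPF2.13-like), whose Arabidopsis namesake loads nitrate into the phloem of older leaves. It had 101.1, 116 and 118 FPKM in H-10, 60.00, 144 and 55.03 FPKM in H-25, 152, 185 and 172 FPKM in H-40 and 42.4, 78.5 and 97.1 FPKM in H-60. The H-40 libraries were the highest of all. It was higher in H-40 vs. H-25 (log2 fold change 1.10 with SE 0.35, adjusted p = 0.0251), a call lost on leaving out library 1 or 3 of H-25 or library 2 or 3 of H-40 (log2 fold change 0.85 to 1.09, adjusted p 0.0612 to 0.109), and lower in H-60 vs. H-40 (log2 fold change -1.29 with SE 0.35, adjusted p = 0.0448), a call near the threshold that was lost in 12 of the 20 alternative settings, including on leaving out library 1 or 2 or 3 of H-10 or library 1 of H-25 or library 1 or 2 or 3 of H-40 or library 1 or 2 of H-60 (log2 fold change -1.38 to -0.94, adjusted p 0.0509 to 0.151), as well as with a pseudocount of 0.1 (adjusted p = 0.0526), with no filter on low values (adjusted p = 0.0699) and with voom (adjusted p = 0.0507). LOC109828778 (NPF6.2), in Arabidopsis a nitrate carrier of the petiole, was lower at the same step, at 21.5 ± 4.42 FPKM in H-60 against 54.1 ± 18.7 FPKM in H-40 (log2 fold change -1.25 with SE 0.31, adjusted p = 0.0305). That call was lost on leaving out library 1 or 3 of H-40 or library 1 or 2 or 3 of H-60 (log2 fold change -1.40 to -1.001, adjusted p 0.0577 to 0.121).

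LOC109839437 (NPF6.3-like; chromosome 4, 144528398 to 144529626, forward strand) is named for NRT1.1, a nitrate carrier that also senses nitrate in Arabidopsis. It had 14.1, 39.97 and 25.5 FPKM in H-10, 1.94, 2.81 and 2.51 FPKM in H-25, 14.97, 12 and 15.4 FPKM in H-40 and 16.4, 11.04 and 25.1 FPKM in H-60. All 3 H-25 libraries, replicate 2 included, were several times below every other library. Among the 105 genes it had the largest fall in H-25 vs. H-10 (log2 fold change -2.90 with SE 0.34, adjusted p = 0.00101), and it was higher again in H-40 vs. H-25 (log2 fold change 2.14 with SE 0.34, adjusted p = 0.000492). These calls were kept in all alternative settings.

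LOC109819432 (NPF8.3-like), named for a carrier of dipeptides, had 54.04, 50.3 and 44.4 FPKM in H-10, 36.1, 70.7 and 30.8 FPKM in H-25, 80.6, 113 and 104 FPKM in H-40 and 98.2, 106 and 114 FPKM in H-60. H-40 and H-60 were above H-25 throughout (log2 fold change 1.18 with SE 0.26, adjusted p = 0.00364 in H-40 vs. H-25, and 1.28 in H-60 vs. H-25). The first of these fell below the fold limit on leaving out library 3 of H-25 (log2 fold change 0.94, adjusted p = 0.0191). LOC109849715 (NPF5.1) averaged 8.26 ± 2.80 FPKM in H-40 against 0.208 ± 0.105 FPKM in H-25 (log2 fold change 2.89 with SE 0.25, adjusted p = 9.40e-06) and 16.01 ± 2.73 FPKM in H-60. LOC109834250 (NPF4.6-like), whose Arabidopsis namesake imports nitrate and abscisic acid, was called at all 3 steps. It averaged 2.75 ± 0.438 FPKM in H-10, 0.655 ± 0.403 in H-25, 4.72 ± 1.82 in H-40 and 10.8 ± 1.30 in H-60. The rise in H-40 vs. H-25 (log2 fold change 1.77 with SE 0.26, adjusted p = 0.000268) was kept in every setting, whereas the call in H-25 vs. H-10 was lost on leaving out library 2 of H-10 or library 1 or 3 of H-25 (log2 fold change -1.14 to -1.07, adjusted p 0.0849 to 0.0872), as well as in a fit to these stages alone (adjusted p = 0.0722) and that in H-60 vs. H-40 on leaving out library 1 or 3 of H-40 or library 1 or 2 of H-60 (log2 fold change 0.90 to 1.06, adjusted p 0.0766 to 0.102), as well as with a pseudocount of 0.1 (adjusted p = 0.0813).

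Some NPF genes moved only late or downward. LOC109835753 (NPF5.8-like) had at most 1.07 FPKM before H-60 and 6.80, 6.85 and 8.997 FPKM in H-60 (log2 fold change 2.46 with SE 0.24, adjusted p = 0.00013 in H-60 vs. H-40). LOC109830000 (NPF2.6-like) had 14.7, 3.23 and 2.89 FPKM in H-60, against 1.40, 0.484 and 0.456 FPKM in H-40 (log2 fold change 1.88 with SE 0.46, adjusted p = 0.0295), and 1 H-60 library was far above the others. This call was lost on leaving out library 2 or 3 of H-40 or library 1 of H-60 (log2 fold change 1.23 to 1.77, adjusted p 0.0537 to 0.103), as well as with a pseudocount of 0.1 (adjusted p = 0.0685), in a fit to these stages alone (adjusted p = 0.0807) and with voom (adjusted p = 0.103). LOC109845710 (NPF3.1-like), in Arabidopsis a carrier of nitrate and gibberellin, was the 1 NPF gene that fell in H-40 vs. H-25, to 10.6 ± 4.25 FPKM in H-40 against 24.5 ± 1.44 FPKM in H-25 (log2 fold change -1.20 with SE 0.29, adjusted p = 0.00652). The fall was smaller than the fold limit on leaving out library 2 of H-40 (log2 fold change -0.90, adjusted p = 0.0283). LOC109822950 (NPF8.3-like) was lower in H-60 vs. H-25, at 2.17 ± 0.507 FPKM in H-60 against 5.56 ± 1.70 FPKM in H-25 (log2 fold change -1.03 with SE 0.26, adjusted p = 0.00590), and missed the fold limit on leaving out library 1 or 3 of H-25 or library 1 of H-60 (log2 fold change -0.93 to -0.88, adjusted p 0.0261 to 0.0297), as well as on TPM (-0.98, adjusted p = 0.0134).

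High-affinity nitrate uptake was represented by 5 genes, of which 3 were tested. LOC109850163 (high-affinity nitrate transporter 2.1-like) had at most 1.90 FPKM and was not called when all libraries were used. Without H-25 replicate 2, its H-25 mean was 0 FPKM and it was called higher in H-40 vs. H-25 (adjusted p = 0.0116). The genes annotated as its activating protein went opposite ways. LOC109830065 had 0.580, 2.90 and 1.46 FPKM in H-10, 0, 0.352 and 0.297 FPKM in H-25, 1.51, 0.695 and 2.55 FPKM in H-40 and 20.3, 16.1 and 15.2 FPKM in H-60, and the H-60 libraries were far above the rest (log2 fold change 2.87 with SE 0.34, adjusted p = 0.000534 in H-60 vs. H-40). Its smaller rise in H-40 vs. H-25 (log2 fold change 1.04 with SE 0.34, adjusted p = 0.0305) was lost on leaving out library 1 or 3 of H-25 or library 1 or 3 of H-40 (log2 fold change 0.77 to 1.09, adjusted p 0.0616 to 0.119), as well as with no filter on low values (adjusted p = 0.0533) and with quantile normalization (0.99, adjusted p = 0.0368). LOC109824594 had 5.04, 4.01 and 3.30 FPKM in H-10, 3.29, 2.68 and 3.68 FPKM in H-25, 0.621, 0.528 and 0.683 FPKM in H-40 and 1.46, 0.827 and 0.146 FPKM in H-60, with every late library below every early one. It was lower in H-40 vs. H-25 (log2 fold change -1.38 with SE 0.27, adjusted p = 0.00191) and in H-60 vs. H-25 (log2 fold change -1.28 with SE 0.27, adjusted p = 0.00205), the second call missing the fold limit on leaving out library 3 of H-60 (log2 fold change -0.99, adjusted p = 0.00764). It overlaps LOC109824593 on the other strand, which averaged 0.0274 FPKM.

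Of 5 ammonium transporter genes only LOC109832920 (ammonium transporter 3 member 1-like) was tested. It had 2.84, 2.04 and 2.18 FPKM in H-10, 4.23, 3.02 and 4.30 FPKM in H-25, 2.36, 1.85 and 0.956 FPKM in H-40 and 2.38, 1.90 and 1.80 FPKM in H-60 and was not called in any comparison of the main fit. In 3 of 19 alternative settings it was called lower in H-40 vs. H-25. Of 6 oligopeptide transporter genes 3 were tested, and all 3 had their lowest stage mean in H-25. LOC109825401 (oligopeptide transporter 4-like) averaged 41.99 ± 5.55 FPKM in H-40 against 14.8 ± 5.36 FPKM in H-25 (log2 fold change 1.496 with SE 0.26, adjusted p = 0.000911). LOC109821344 (oligopeptide transporter 3), which in Arabidopsis serves iron transport in the phloem, had 13.2, 19.99 and 13.6 FPKM in H-10, 3.94, 14.5 and 3.32 FPKM in H-25, 17.1, 19.6 and 19.7 FPKM in H-40 and 29.97, 27.5 and 23.1 FPKM in H-60. Again H-25 replicate 2 was nearer to the H-40 libraries than the other H-25 libraries were, and all H-40 libraries were above all H-25 libraries (log2 fold change 1.51 with SE 0.38, adjusted p = 0.00815). LOC109851325 (oligopeptide transporter 7-like) averaged 10.6 ± 2.31 FPKM in H-10, 5.76 ± 0.939 in H-25, 8.08 ± 1.01 in H-40 and 8.83 ± 2.29 in H-60 and was not called in the main fit. In 1 of 20 alternative settings it was called lower in H-25 vs. H-10. The GABA transporter gene had no library above 1.85 FPKM, and both genes annotated as peptide/nitrate transporters had no fragment in any library.

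Members were spread over all 10 numbered chromosomes, with 168 genes placed and 8 on unplaced sequence. Of the 176, 50 lay within 100000 bases of another member of the same role group, in 21 groups. The following groups were picked after their values had been seen. On chromosome 8, LOC109819432 (39985332 to 39990787) and LOC109822950 (39991443 to 39998296), both NPF8.3-like, differed in level and in direction. The first averaged 106 ± 7.82 FPKM in H-60 against 45.9 ± 21.7 FPKM in H-25 and was called higher, and the second averaged 2.17 ± 0.507 FPKM in H-60 against 5.56 ± 1.70 FPKM in H-25 and was called lower. On chromosome 3, LOC109832564 (798520 to 806445) and LOC109832006 (806886 to 808429), both vacuolar amino acid transporter 1-like, parted in H-60 vs. H-40. LOC109832564 fell to 1.59, 2.72 and 1.28 FPKM in H-60, against 4.91, 4.96 and 4.92 FPKM in H-40 (log2 fold change -1.08 with SE 0.27, adjusted p = 0.0323), while LOC109832006 was called higher. In a group of 5 At5g64700-like genes within 244797 bases of chromosome 4, LOC109838160 averaged 34.8 ± 10.9 FPKM in H-60, and no other gene of the group had a stage mean above 2.25 FPKM.

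The enzymes that reduce nitrate and build glutamine, glutamate, asparagine and aspartate were set beside the transporters as a list of 30 genes, of which 22 were tested. They were called at shares near those of all tested genes. In H-40 vs. H-25, 3 were higher (13.6%, against 11.9%) and 2 lower (9.09%, against 12.2%), and in H-60 vs. H-25, 5 were higher (22.7%, against 16.3%) and 4 lower (18.2%, against 16.2%). In H-60 vs. H-40 none was called, and in H-25 vs. H-10, 1 was higher (4.55%, against 1.54%). Its most abundant genes were LOC109849342 (glutamine synthetase, chloroplastic), which had 259, 289 and 211 FPKM in H-10, 253, 452 and 273 FPKM in H-25, 572, 535 and 531 FPKM in H-40 and 298, 266 and 274 FPKM in H-60, and LOC109851277 (glutamine synthetase cytosolic isozyme 1), which had 315, 475 and 483 FPKM in H-10, 278, 543 and 273 FPKM in H-25, 231, 308 and 368 FPKM in H-40 and 306, 214 and 230.0 FPKM in H-60. Neither was called in these comparisons. Genes for aspartate aminotransferase stood on both sides, with LOC109826129 (1.40) and LOC109839520 (1.58) higher and LOC109819422 (-1.17) lower in H-40 vs. H-25 on the log2 scale. In the same comparison glutamate dehydrogenase 2 (LOC109826055) was higher by 1.65, and isoaspartyl peptidase/L-asparaginase 1 (LOC109845404) fell by 1.81. Those 3 higher and 2 lower genes were also called the same way in H-60 vs. H-25, joined by LOC109848100 (asparagine synthetase, at 101.3 ± 29.8 FPKM in H-60 against 34.2 ± 17.1 FPKM in H-25, log2 fold change 1.60 with SE 0.45, adjusted p = 0.0104) and LOC109844495 (glutamine synthetase nodule isozyme-like, 1.51) among the higher genes, and by the aspartate aminotransferase genes LOC109823837 and LOC109839903 among the lower ones. The 1 gene higher in H-25 vs. H-10 was LOC109847559 (isoaspartyl peptidase/L-asparaginase 1-like, log2 fold change 1.79 with SE 0.40, adjusted p = 0.0231). The genes of this list named for their calls were chosen after the values had been seen.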

How the data were processed

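Strand-specific libraries had been made from total RNA of the stem segments and sequenced. According to the submitters' processing notes, HISAT2, StringTie, featureCounts and DESeq2 were used, their versions and settings being not given in the sources used here. FPKM per gene were computed by the authors and deposited together with 4 columns of stage means, which were not used. All 176 transporter genes matched RefSeq gene IDs, starts and ends of the assembly Aspof.V1. Fragment numbers recovered from the FPKM were whole within 0.01.

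Genes with at least 1 FPKM in at least 3 of the 12 libraries (20352) were tested with limma (version 3.58.1, R 4.3.3) on log2(FPKM + 1), with 1 mean per stage, an intensity trend and Benjamini-Hochberg adjustment over all tested genes. A pseudocount of 1 understates the change of low genes. P-values test differences of stage means against the spread between libraries of a stage, pooled over the stages and moderated across genes. The method was tested on simulated data. Named genes were the called ones with at least 5 FPKM in the higher stage, at most 10 per direction and comparison, the 2 most abundant of each role group, and all tested genes of groups with up to 4. Alternatives were a pseudocount of 0.1, no filter, a mean of at least 5 FPKM, TPM, quantile normalization, a fit to 2 stages, a replicate block, voom on recovered fragments, and leaving out each library. Members, gene lists and tests were chosen with earlier results of these data known.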

Additional observations from a re-analysis of the deposited data

How the results depend on the processing

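Among the counts of called transporter genes, H-25 vs. H-10 was the least stable. Its count of higher genes, 0, became 1 with a mean of at least 5 FPKM (1.61%, against 1.86% of all genes so filtered). It also became 1 (0.952%) with quantile normalization (against 1.36%), a replicate block (against 1.77%) and voom (against 1.69%). The count of lower genes at this step, 8, became 17 with TPM (16.2%, against 5.23% of all tested genes). There the median of all tested genes shifted by -0.19 on the log2 scale. With only these stages fitted, the count of lower genes became 2 (1.90%, against 0.609%). Leaving out 1 library at a time gave 0 to 2 higher and 2 to 18 lower genes in H-25 vs. H-10, 34 to 47 higher and 3 to 6 lower genes in H-40 vs. H-25, 8 to 14 higher and 2 to 8 lower genes in H-60 vs. H-40, and 52 to 59 higher and 3 to 7 lower genes in H-60 vs. H-25. Over all tested genes, these fits called 0.472% to 4.4% higher and 1.17% to 5.69% lower in H-25 vs. H-10. The shares were 9.89% to 14.8% and 9.78% to 15.5% in H-40 vs. H-25. They were 1.78% to 3.45% and 1.32% to 2.84% in H-60 vs. H-40, and 14.9% to 18.7% and 14.5% to 19% in H-60 vs. H-25. A mean of at least 5 FPKM, which tests 62 transporter genes, gave 2 lower genes in H-40 vs. H-25 (3.23%, against 13.1% of all genes so filtered), 6 higher genes in H-60 vs. H-40 (9.68%, against 2%), and 35 higher (56.5%, against 16%) and 1 lower (1.61%, against 18%) in H-60 vs. H-25. A pseudocount of 0.1 gave 6 higher genes in H-60 vs. H-40 (5.71%, against 2.17%). For single named genes, 3267 of the values under alternatives kept their side of the thresholds, 93 lost the call, 36 gained one and none turned a call round. Of the named genes' calls, 2 of 8 in H-25 vs. H-10, 22 of 29 in H-40 vs. H-25, 6 of 14 in H-60 vs. H-40 and 29 of 32 in H-60 vs. H-25 held in every alternative tried.

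Deviations from the stage means correlated by over 0.1 in 10 of 18 pairs of same-numbered libraries (median 0.11, lowest -0.09) and in 4 of 36 differently numbered pairs (median -0.06). Same-numbered libraries were thus more alike on balance, but replicate numbers were not taken to pair libraries, because not every pair passed 0.1 and the labels name no shared batch or plant. A replicate block gave 1 higher (0.952%, against 1.77% of all tested genes) and 11 lower genes (10.5%, against 3.36%) in H-25 vs. H-10. It gave 41 (39%, against 12.2%) and 5 (4.76%, against 12.3%) in H-40 vs. H-25. In H-60 vs. H-40 it gave 12 (11.4%, against 3.24%) and 6 (5.71%, against 2.47%). For H-60 vs. H-25 these were 56 (53.3%, against 16.5%) and 5 (4.76%, against 16.3%). With 3 libraries a stage, and with genes under about 1 FPKM resting on few fragments, small differences were not detectable.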
